A study of Mus musculus with 3 samples.

Results

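The 10 genes described here were taken as a list of late neutrophil maturation genes of the mouse: Mmp8, Mmp9, Mmp25, Retnlg, Slpi, Scrg1, Il1r2, Padi4, Asprv1 and Anxa1. They were found by symbol among the 19059 genes probed in the study, each with a single row, so that no member of the 10 is missing. RNA of single CD45+ cells, sorted alive from mouse livers at postnatal day 0 and then fixed, was read with a set of probes for each gene. The groups were a Pex2-/- library (KO), a library labelled heterozygous (Het, pex2-/+) and a library labelled wild type (WT, pex2+/+), with 1 library per genotype. Pex2 encodes peroxin 2, a membrane protein needed to import enzymes into peroxisomes. The KO mice are homozygous for a null allele per the labels. How many mice went into a library is not stated in the sources used here. With 1 library per genotype there is no replicate error and no test. Intervals are exact at 95% and cover counting error only.

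Neutrophils mature in steps, and each step fills its own class of granule. Promyelocytes make the primary granules, dividing and early non-dividing precursors make the secondary granules, and the late non-dividing cells make gelatinase granules and the products of the segmented cell. The genes described here belong mainly to the last steps, and some of them also serve monocytes, which share a progenitor with neutrophils. In the newborn mouse the liver is still a site of blood formation, so that dividing precursors and segmented cells are found in it together.

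The 3 libraries held 8245 barcodes for KO, 8000 for the library labelled Het and 9600 for the library labelled WT, with 186295183, 144589956 and 96629431 unique molecular identifiers (UMIs). The median cell had 19348, 15558.5 and 8218.5 UMIs in that order of libraries. Pex2 itself was at 0.0114 CPM (counts per 1000000 UMIs) in KO cells, 53.4 CPM in the library labelled Het and 23.6 CPM in the library labelled WT, so the order of the control libraries goes against their labels, and they are named by label throughout. The Y-linked gene Ddx3y was at 0.0171 CPM in KO and 0.00718 CPM in the library labelled Het, against 82.6 CPM in the library labelled WT. Sex and genotype therefore cannot be told apart between KO and the library labelled WT. The same holds between the library labelled Het and the library labelled WT. The cells of different libraries shared no full barcode, and 961 to 1184 droplet sequences of 16 bases occurred in any pair of libraries.

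Cells were placed in stages by markers that include none of the 10 genes, each score being the UMIs of a marker list per 10000 UMIs of the cell. Promyelocytes carried primary granule genes such as Elane and Mpo. Dividing granule cells carried secondary granule genes (Ltf, Camp, Ngp, Cebpe) together with genes of mitosis. Non-dividing cells with secondary granule genes were split by a mature score (Cxcr2, Fpr1, Fpr2, Il1b, Mxd1, Msrb1, Clec4e) at 40 into early granule and late granule cells, and segmented cells had a mature score of at least 40 with little of either granule class. The late granule gate held 2012 KO cells, 1396 cells labelled Het and 2370 cells labelled WT, and the segmented gate held 455, 277 and 276 cells in that order. Gates are ranges on a score, and 382, 588 and 799 of the late granule cells lay near a threshold. B-lineage cells, which should lack all 10 genes, served as the measure of free RNA. Markers of hepatocytes summed to 4.93 CPM in segmented KO cells, against 0.813 CPM in the library labelled Het and 0.879 CPM in the library labelled WT, and 5 of 6 were at 0 in each of those libraries. Monocyte markers summed to 256, 288 and 312 CPM in segmented cells of the KO, Het-labelled and WT-labelled libraries. The part of such RNA in the members' levels was not tested.

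Upstream sequence is shown for 5 of the members that passed 1.5-fold in KO against both other libraries in one or more gates: Mmp8, Il1r2, Asprv1, Padi4 and Anxa1. Retnlg, Slpi, Scrg1 and Mmp9 did so as well, and their windows are not printed. Each window runs from 250 bases before to 50 bases after the gene's start, on the gene's own strand, and comes from RefSeq on build GRCm38.p6. The windows lie at chr9:7558179-7558478 (plus strand) for Mmp8, chr1:40085843-40086142 (plus) for Il1r2, chr6:86627924-86628223 (plus) for Asprv1, chr4:140774154-140774453 (minus) for Padi4 and chr19:20390622-20390921 (minus) for Anxa1. The start used for Il1r2 lies inside the longer span that GENCODE gives this gene. Capitals mark matches on either strand to the motif letters searched, and no matches overlapped.
Mmp8: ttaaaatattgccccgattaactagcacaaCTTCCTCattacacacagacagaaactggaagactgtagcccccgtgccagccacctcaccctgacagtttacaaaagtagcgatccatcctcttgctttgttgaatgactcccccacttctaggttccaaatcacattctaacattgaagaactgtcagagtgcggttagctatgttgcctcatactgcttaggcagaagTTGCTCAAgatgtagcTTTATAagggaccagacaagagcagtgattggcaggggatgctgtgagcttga
Il1r2: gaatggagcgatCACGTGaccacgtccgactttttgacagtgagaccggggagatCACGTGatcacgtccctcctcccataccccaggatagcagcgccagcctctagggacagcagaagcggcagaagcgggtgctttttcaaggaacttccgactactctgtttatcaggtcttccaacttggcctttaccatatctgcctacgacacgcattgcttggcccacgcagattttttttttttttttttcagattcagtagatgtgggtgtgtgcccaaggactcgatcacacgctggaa
Asprv1: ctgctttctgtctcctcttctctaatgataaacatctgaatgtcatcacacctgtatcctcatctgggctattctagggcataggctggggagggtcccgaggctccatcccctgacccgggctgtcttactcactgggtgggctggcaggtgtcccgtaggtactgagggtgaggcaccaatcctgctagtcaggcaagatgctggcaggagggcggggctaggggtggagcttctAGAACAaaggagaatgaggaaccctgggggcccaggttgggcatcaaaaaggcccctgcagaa
Padi4: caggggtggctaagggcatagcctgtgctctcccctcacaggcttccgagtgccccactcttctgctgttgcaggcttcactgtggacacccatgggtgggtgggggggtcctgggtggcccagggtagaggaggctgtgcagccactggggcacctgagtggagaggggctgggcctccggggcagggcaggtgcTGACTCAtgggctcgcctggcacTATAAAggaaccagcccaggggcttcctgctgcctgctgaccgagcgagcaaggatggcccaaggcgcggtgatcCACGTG
Anxa1: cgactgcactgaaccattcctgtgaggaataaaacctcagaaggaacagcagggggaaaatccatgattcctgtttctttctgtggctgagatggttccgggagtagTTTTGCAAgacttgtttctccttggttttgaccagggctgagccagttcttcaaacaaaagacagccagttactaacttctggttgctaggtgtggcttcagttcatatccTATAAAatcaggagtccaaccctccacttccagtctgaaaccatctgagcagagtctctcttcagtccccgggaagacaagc

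A window was found for 8 of the 10 members, and those of Mmp9 and Scrg1 were not used. The letters TTNNGCAA, a short form of the site of the C/EBP family, which drives granulocyte maturation, were in the windows of Anxa1, Mmp8, Retnlg and Slpi, 4 of 8, and in 10.8% of 27025 mouse promoters of the same length. In the Mmp8 window the match TTGCTCAA starts 19 bases before the start site, and in the Anxa1 window TTTTGCAA starts 143 bases before it. GAGGAAG, read by the myeloid factor PU.1, was in 2 of 8 windows (Mmp25 and Mmp8) and in 13.5% of all promoters. The TATA box letters TATAAA were in the windows of Anxa1, Mmp8 and Padi4 (14.2% of all), and the E-box CACGTG was in those of Il1r2, Padi4 and Slpi (7.24% of all). TGANTCA, bound by AP-1, was in the Padi4 window (7.93% of all), and AGAACA, a single arm of the glucocorticoid receptor site, was in that of Asprv1 (19.0% of all). TGTGGT (RUNX, 16.9% of all) and the NF-kB motif (1.17% of all) had no match in the 8 windows. A match describes letters in this window and is not a measured binding site.

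Along the neutrophil stages, 8 of the 10 genes were at least 2-fold higher in late granule cells than in dividing granule cells in all 3 libraries, where 4.18% of all genes were. The exceptions were Slpi and Anxa1. Slpi was 1.39-fold, 1.59-fold and 1.61-fold higher over that step in the KO, Het-labelled and WT-labelled libraries. Anxa1 was already up in dividing granule cells, at 4.01-fold its promyelocyte level in KO, 18.3-fold in the library labelled Het and 23.2-fold in the library labelled WT. From late granule to segmented cells, Retnlg and Il1r2 were at least 2-fold higher in all 3 libraries (6.9% of all genes) and Padi4 and Anxa1 at least 2-fold lower (4.33% of all genes). The members were chosen as late genes, so these shares describe the choice and support nothing further. Probe capture does not give levels that can be compared between genes, and each gene is compared only with itself.

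**Figure D1:**
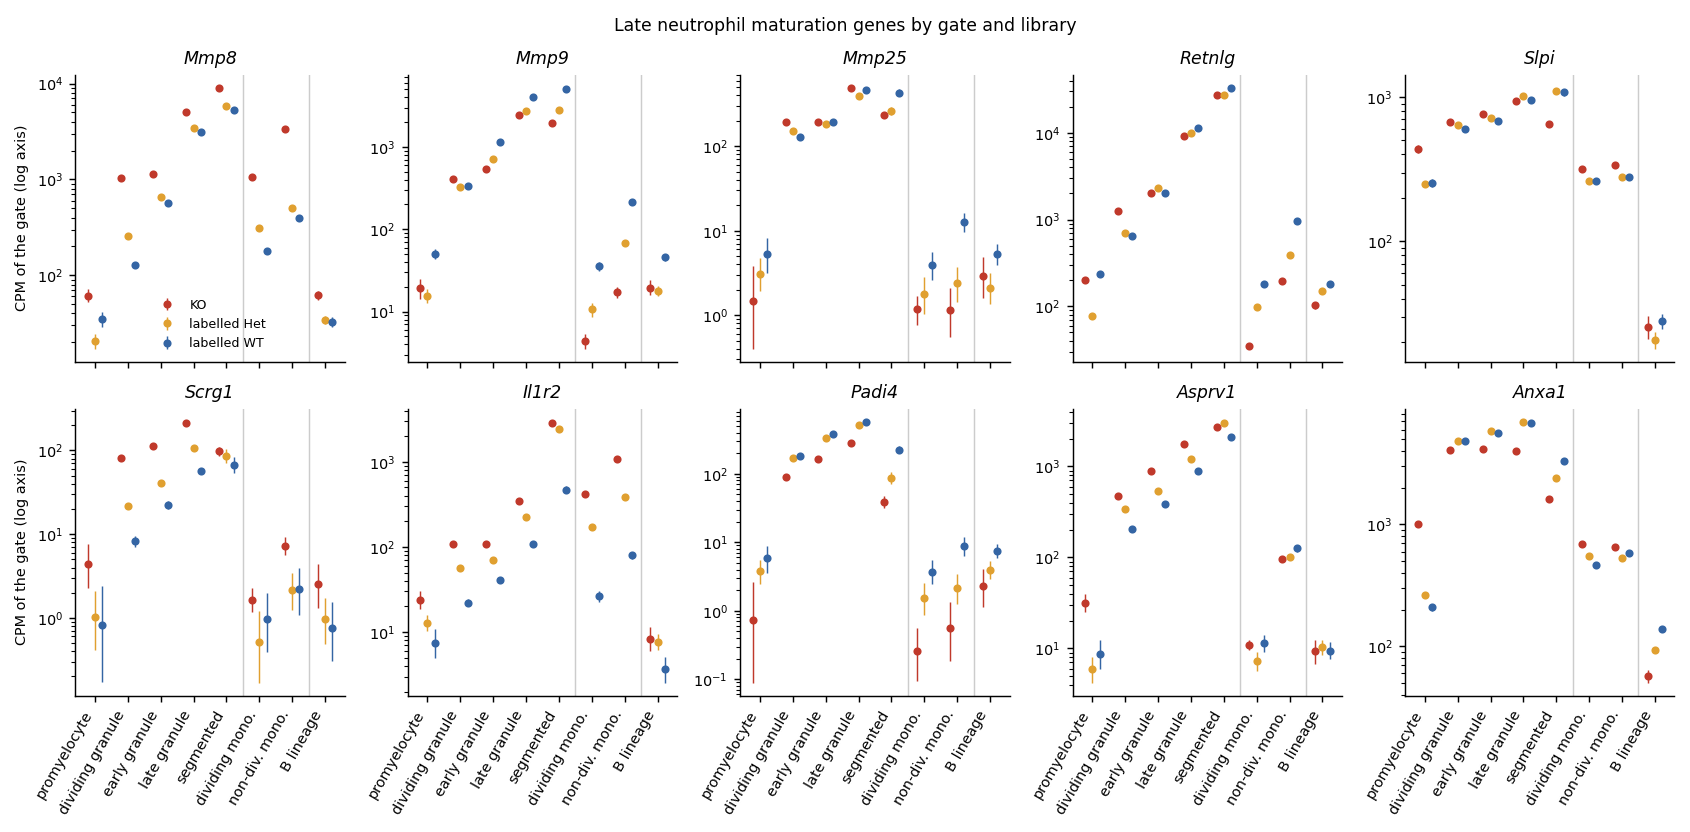
Level of each gene in CPM (log axis) in the 5 neutrophil stages, 2 monocyte gates and B-lineage cells, with KO (red), labelled Het (orange) and labelled WT (blue) side by side; bars are exact Poisson intervals at 95%. Mmp8 and Il1r2 of KO cells lie above both other libraries in the dividing granule gate and in both monocyte gates, and Padi4 of KO cells lies below them from the dividing granule gate to the segmented gate.

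With the 5 neutrophil stages summed, 4 members were at least 1.5-fold higher in KO than in both other libraries: Mmp8, Scrg1, Il1r2 and Asprv1. The same held for 2.63% of the 7220 genes with enough UMIs. Padi4 was the 1 member at least 1.5-fold lower than both, against 9.97% of all genes. The median log2 ratio of the members was 0.39 for KO over the library labelled Het and 0.11 for KO over the library labelled WT, beside -0.10 and -0.06 for all genes. The median of all genes moved to 0.24 and 0.21 when edgeR's TMM factors replaced the UMI total. The 4 higher members still passed 1.5-fold, but so then did 12.8% of all genes. Padi4 no longer passed as lower (4.27% of all genes). The library labelled Het, set against the library labelled WT, was at least 1.5-fold higher for Scrg1 and Il1r2 (4.61% of all genes) and lower for Mmp9 and Retnlg (1.99%). Libraries of the 2 labels thus also differed from each other by the same fold for 4 members, a comparison that is confounded with sex.

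Matrix metalloproteinases come first. Mmp8 (chr9:7558456-7568485, mm10) encodes neutrophil collagenase, which is stored in granules and cleaves fibrillar collagen. In dividing granule cells it was at 1026 CPM in KO, against 259 CPM in the library labelled Het and 129 CPM in the library labelled WT. KO cells were 3.96-fold (3.88 to 4.04) and 7.93-fold (7.65 to 8.23) higher. The gap was smaller later on. Late granule cells had 5102 CPM in KO, 3461 CPM in the library labelled Het and 3103 CPM in the library labelled WT, and segmented cells had 8975, 5774 and 5273 CPM in that order. KO was thus 1.47-fold and 1.64-fold higher in late granule cells, and 1.55-fold and 1.70-fold higher in segmented cells. The KO level of Mmp8 in dividing cells exceeded that of early granule cells labelled Het (656 CPM) and labelled WT (561 CPM).

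Dividing granule cells of KO also had the higher mature score, with a median of 30.4 against 23.4 in the library labelled Het and 22.1 in the library labelled WT. Mmp8 was therefore read within bins of that score, a division chosen after the data were seen. Fpr2, a gene of that score, was itself higher in KO over the summed neutrophil stages. An equal score therefore need not mean equal maturity, here and in the bins of other members below. The bins were not recomputed without Fpr2. Among dividing cells with a score of 40 to 60, Mmp8 was at 2654 CPM in KO (552 cells), against 1306 CPM in the library labelled Het (148 cells) and 674 CPM in the library labelled WT (106 cells). Within this bin the KO level was still above both other libraries, with a smaller gap than in the whole gate. At a score of 10 to 20 the dividing cells had 60.3, 31.8 and 31.5 CPM of Mmp8 in the KO, Het-labelled and WT-labelled libraries. Non-dividing cells of the same low score had 45.9 CPM in KO, against 65.1 and 76.7 CPM in the libraries labelled Het and WT, so there the order was the opposite.

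Mmp9 (chr2:164940780-164955850) encodes gelatinase B, the enzyme that names the gelatinase granule. Late granule cells had 2469 CPM in KO, 2769 CPM in the library labelled Het and 4075 CPM in the library labelled WT. Segmented cells had 1927 CPM in KO, 2798 CPM in the library labelled Het and 5126 CPM in the library labelled WT. KO was the lowest library in both gates, and the library labelled WT stood well above both others. The segmented KO level was 0.689 times that labelled Het (0.659 to 0.720) and 0.376 times that labelled WT (0.362 to 0.391). Dividing granule cells showed another order, with 411 CPM in KO, 322 CPM in the library labelled Het and 338 CPM in the library labelled WT. Within bins of the mature score, dividing KO cells had the lowest Mmp9 in each bin that all 3 libraries filled. At a score of 10 to 20 the level was 14.5 CPM in KO, against 36.6 and 97.4 CPM in the libraries labelled Het and WT. At 40 to 60 it was 1189 CPM in KO, against 1444 and 1554 CPM.

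The stage of the highest Mmp9 level also differed between libraries. It was the late granule gate in KO, and the segmented gate in the libraries labelled Het and WT. The step from late granule to segmented cells was 0.781-fold in KO, 1.01-fold in the library labelled Het and 1.26-fold in the library labelled WT. Mmp8 and Mmp9 thus parted in KO: the collagenase was higher and the gelatinase lower in the same segmented cells, relative to both other libraries. In that gate 15.9% of all genes were at least 1.5-fold higher in KO than in both others. Mmp8 did not pass that fold there with TMM or DESeq2 factors.

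Mmp25 (chr17:23628311-23645277) encodes a metalloproteinase held at the cell surface by a lipid anchor. It was at 488, 395 and 467 CPM in late granule cells of the KO, Het-labelled and WT-labelled libraries, a gene on which the libraries differed little at this stage. In segmented cells it was at 235 CPM in KO and 263 CPM in the library labelled Het, against 431 CPM in the library labelled WT. KO and the library labelled Het had overlapping intervals there, and both lay below the library labelled WT.

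**Figure D2:**
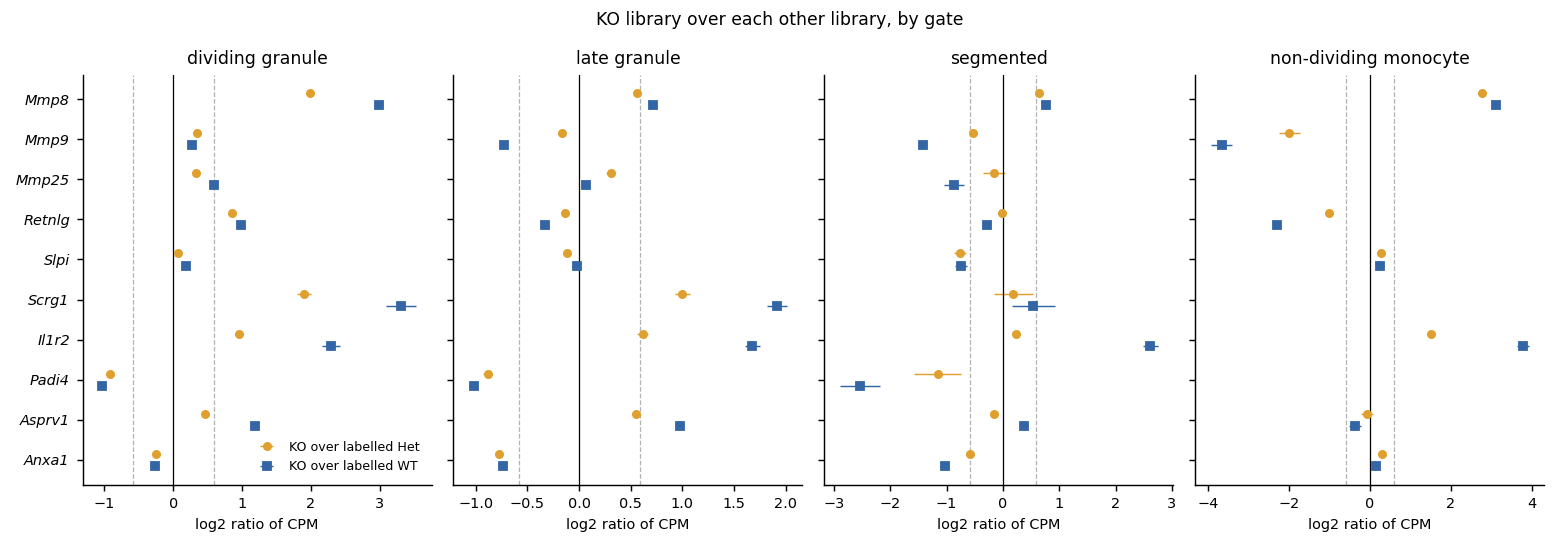
The log2 ratio of CPM of KO over the library labelled Het (orange circles) and over the library labelled WT (blue squares) for each gene in 4 gates, with exact conditional binomial intervals at 95%; dashed lines mark 1.5-fold, and genes with a mean under 10 CPM are not drawn. Mmp8, Scrg1 and Il1r2 stand to the right in dividing granule cells, Padi4 stands to the left in all 3 neutrophil gates, and Mmp8 and Il1r2 stand to the right in non-dividing monocytes.

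Of the secreted products, Retnlg (chr16:48872621-48874496) encodes resistin-like gamma, a small cysteine-rich protein of rodent neutrophils. Segmented cells had 26940 CPM in KO, 27070 CPM in the library labelled Het and 32850 CPM in the library labelled WT. KO and the library labelled Het could not be told apart by counting error in that gate, with a ratio of 0.995 (0.982 to 1.01). Dividing granule cells had 1266 CPM in KO, against 702 and 643 CPM in the libraries labelled Het and WT, and KO was 1.80-fold and 1.97-fold higher. At a matched mature score of 40 to 60 the dividing cells had 2511, 2307 and 2274 CPM of Retnlg, within 1.5-fold of each other. Non-dividing cells with a score of 60 to 80 had 10950 CPM in KO, against 16480 and 17150 CPM in the libraries labelled Het and WT, so at this score KO was the lowest.

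Slpi (chr2:164354070-164389095) encodes secretory leukocyte peptidase inhibitor, which blocks neutrophil elastase and cathepsin G. Its libraries lay within 1.5-fold of each other at 3 of the stages, with 676, 644 and 597 CPM in dividing granule cells, 757, 721 and 685 CPM in early granule cells and 943, 1024 and 959 CPM in late granule cells of the KO, Het-labelled and WT-labelled libraries. Promyelocytes and segmented cells were not so close, and they differed in direction. Promyelocytes had 436 CPM of Slpi in KO, against 250 CPM in the library labelled Het and 255 CPM in the library labelled WT. Segmented cells had 648 CPM in KO, against 1102 CPM in the library labelled Het and 1082 CPM in the library labelled WT. The KO level there was 0.588 times (0.546 to 0.633) and 0.598 times (0.555 to 0.645) that of the other libraries, which overlapped each other.

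Scrg1 (chr8:57455923-57477585) encodes a small secreted protein first described in scrapie-infected brain. Of the members it had the widest ratio to the library labelled WT in dividing granule cells. KO had 81.1 CPM, against 21.8 CPM in the library labelled Het and 8.21 CPM in the library labelled WT, so that KO was 3.72-fold (3.48 to 3.98) and 9.88-fold (8.54 to 11.5) higher. Late granule cells kept the same order at 216, 108 and 57.4 CPM. In segmented cells the values came together at 97.8 CPM in KO (ratio to the library labelled Het 1.14, 0.899 to 1.44), 86.2 CPM in the library labelled Het and 67.7 CPM in the library labelled WT. Thinned to 3000 UMIs per cell, a UMI of Scrg1 was seen in 44.7% of late granule cells of KO, 27.01% of those labelled Het and 15.3% of those labelled WT. B-lineage cells, by the same measure, gave 0.792%, 0.496% and 0.360%.

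Il1r2 (chr1:40074079-40125231) encodes the decoy receptor of interleukin 1, which binds the cytokine without passing a signal on. Segmented cells had 2899 CPM in KO and 2452 CPM in the library labelled Het, against 472 CPM in the library labelled WT. KO and the library labelled Het lay close together, at a ratio of 1.18 (1.13 to 1.23), and KO was 6.14-fold (5.62 to 6.71) above the library labelled WT. Late granule cells were graded, with 349, 227 and 109 CPM in the KO, Het-labelled and WT-labelled libraries. Dividing granule cells were graded too, at 109, 56.1 and 22.2 CPM.

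The grading of Il1r2 was also seen at a matched mature score. Non-dividing cells with a score of 40 to 60 had 193 CPM in KO, 152 CPM in the library labelled Het and 72.2 CPM in the library labelled WT. In the next bins KO and the library labelled Het had overlapping intervals, with 427 and 427 CPM at 60 to 80, and 1288 and 1330 CPM at 80 to 120. In the highest bin, 120 to 200, KO was above again, at 3336 CPM (3220 to 3456) against 2849 CPM (2715 to 2987) in the library labelled Het. The library labelled WT had 156, 317 and 561 CPM in those 3 bins. The differences of KO and of the library labelled Het from the library labelled WT are confounded with sex, as stated above.

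Padi4 (chr4:140745865-140774236) encodes the peptidylarginine deiminase that citrullinates histones when neutrophils release chromatin. It was the only member that was lower by at least 1.5-fold in KO than in both other libraries in each of the dividing, early, late and segmented gates. Dividing granule cells had 89.8 CPM in KO, against 170 CPM in the library labelled Het and 184 CPM in the library labelled WT. Late granule cells had 279 CPM in KO, 515 CPM in the library labelled Het and 566 CPM in the library labelled WT, and KO was 0.541 times (0.525 to 0.557) and 0.493 times (0.479 to 0.507) as high. In segmented cells Padi4 was at 39.0 CPM in KO, 87.0 CPM in the library labelled Het and 226 CPM in the library labelled WT, below the late granule level in every library.

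A matched mature score left the order of Padi4 as it was. Dividing cells with a score of 40 to 60 had 149 CPM in KO, against 334 and 341 CPM in the libraries labelled Het and WT. Non-dividing cells of the same score had 283 CPM in KO, against 522 and 587 CPM. The share of late granule cells with a Padi4 UMI, thinned to 3000 UMIs, was 49.2% in KO, 72.1% in the library labelled Het and 76.2% in the library labelled WT, and B-lineage cells gave 0.317%, 0.892% and 2.07%. Unthinned, the late granule shares were 88.7%, 94.3% and 92.5%, at median depths of 15529, 11783.5 and 6843 UMIs.

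Asprv1 (chr6:86628164-86629710) encodes a retroviral-like aspartic protease best known from the skin, where it processes filaggrin. Late granule cells had 1741 CPM in KO, 1190 CPM in the library labelled Het and 887 CPM in the library labelled WT, a graded order. KO was 1.46-fold and 1.96-fold higher. In segmented cells the library labelled Het was the highest, with 2706 CPM in KO, 3000 CPM in the library labelled Het and 2080 CPM in the library labelled WT. Non-dividing cells with a score of 80 to 120 had 2313 and 2327 CPM in KO and the library labelled Het, against 1560 CPM in the library labelled WT.

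Anxa1 (chr19:20373428-20390944) encodes annexin A1, a calcium-dependent phospholipid-binding protein of gelatinase granules that acts on formyl peptide receptors. Late granule cells had 4036 CPM in KO, against 6921 CPM in the library labelled Het and 6736 CPM in the library labelled WT. KO was 0.583 times (0.579 to 0.588) and 0.599 times (0.595 to 0.604) as high, while the other libraries lay close together. Segmented cells had 1615 CPM in KO, 2423 CPM in the library labelled Het and 3304 CPM in the library labelled WT. In the libraries labelled Het and WT Anxa1 was highest in late granule cells, 1.44-fold and 1.39-fold above the dividing gate. In KO that step was flat, at 0.996-fold (0.990 to 1.00).

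Bins of the mature score showed the same for Anxa1. In dividing cells of the library labelled Het it was at 4365 CPM at a score of 10 to 20 and 5988 CPM at 40 to 60, and in the library labelled WT at 4450 and 5929 CPM. KO had 3790 and 3999 CPM at those scores. The KO line was nearly level where both others climbed.

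**Figure D3:**
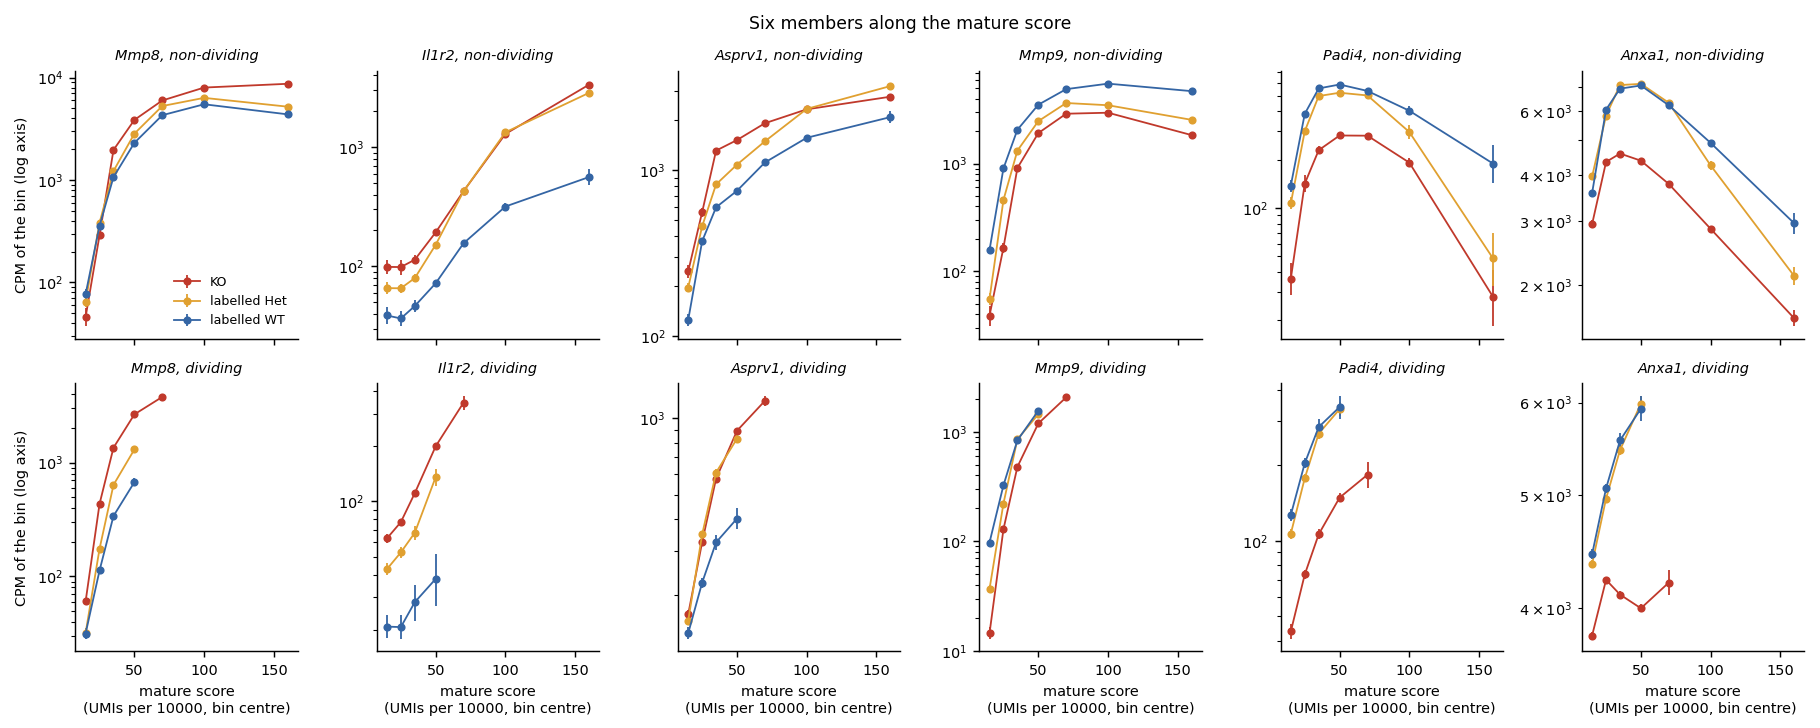
CPM (log axis) of 6 genes in bins of the mature score, for non-dividing granule-stage and segmented cells (upper row) and dividing granule cells (lower row), with exact Poisson intervals at 95%; only bins of at least 20 cells are drawn. In bins of equal score Mmp8 of dividing KO cells (red) lies above both other libraries. Padi4 and Anxa1 of KO cells lie below them in dividing and non-dividing cells. The score includes Fpr2, which was higher in KO, so equal scores need not mean equal maturity.

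Counts by gate add up as follows. In dividing granule cells 4 members were at least 1.5-fold higher in KO than in both others (Mmp8, Retnlg, Scrg1, Il1r2; 2.93% of all genes) and 1 was lower (Padi4; 6.16%). Early granule cells had 4 higher (Mmp8, Scrg1, Il1r2, Asprv1; 4.84%) and 1 lower (Padi4; 6.02%). Late granule cells had 2 higher (Scrg1, Il1r2; 5.81%) and 2 lower (Padi4, Anxa1; 5.26%). Segmented cells had 1 higher (Mmp8), a share below the 15.9% of all genes, and 3 lower (Slpi, Padi4, Anxa1; 6.12%). The members thus differed in direction within each gate. The median log2 ratio of the 10 in segmented cells was -0.16 for KO over the library labelled Het and -0.51 over the library labelled WT, beside 0.24 and 0.17 for all genes, while in dividing cells it was 0.40 and 0.79, beside -0.06 and -0.03. The median UMI count per cell also differed, at 31507 in dividing KO cells, 23303.5 in those labelled Het and 13341 in those labelled WT. With every cell thinned to 3000 UMIs the summed neutrophil stages still had 4 higher members (3.63% of all genes) and 1 lower (7.62%). Several of these calls moved with the settings. With looser gates early granule cells had 1 higher member (Scrg1, beside 4.31% of all genes) and 4 lower (Mmp8, Mmp9, Retnlg, Padi4, beside 7.36%). Looser ranges overlapped, and a cell that met several went to the later stage. The early granule gate then ended at a lower mature score and took in cells with a higher dividing score, so it held partly other cells. With stricter gates early granule cells had 3 higher (Scrg1, Il1r2, Asprv1, beside 7.62%) and 0 lower (8.95%). No member was called higher in late granule cells when Fpr2 and Mxd1 were left out of the mature score (10.3% of all genes were). Mmp8 was not called in segmented cells with TMM factors (10.1% of all genes were). In the early granule gate as changed by looser thresholds the log2 ratio of Mmp8 was -0.998 over the library labelled Het and -0.89 over the library labelled WT.

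Promyelocytes, the earliest stage, held little of most members, and only 57 KO cells were in that gate, against 206 labelled Het and 181 labelled WT. Anxa1 was at 1012 CPM in KO promyelocytes, against 262 and 209 CPM in the libraries labelled Het and WT, and B-lineage cells gave 57.1, 93.2 and 139 CPM. Slpi, given above, was higher in KO as well. Mmp8 was at 61.3, 20.4 and 34.75 CPM in the KO, Het-labelled and WT-labelled libraries, against 61.5, 34.0 and 32.4 CPM in B-lineage cells. Asprv1 was at 31.75, 5.88 and 8.62 CPM, against 9.23, 10.3 and 9.42 CPM. Mmp8 thus did not stand clear of free RNA in any library, and Asprv1 did so in KO alone. Slpi and Il1r2 lay above their B-lineage levels in each library. The part of free RNA was not tested. Of the 7 members with enough UMIs, 5 were at least 1.5-fold higher in KO than in both others (Mmp8, Slpi, Il1r2, Asprv1, Anxa1; 5.26% of all genes) and none was lower (11.9% of all genes). The 5 became 3 with cells thinned to 3000 UMIs (Mmp8, Asprv1, Anxa1, beside 11.8% of all genes). With stricter gates they became 3 (Slpi, Il1r2, Anxa1, beside 5.5%), and Mmp9 was then called lower (11.7%). At 2-fold they became 2 (Asprv1, Anxa1, beside 0.943%). Anxa1 was the member called in each of these. The mature score of these cells was 10.1 in KO, 5.98 in the library labelled Het and 5.49 in the library labelled WT (medians).

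In monocytes, Mmp8 and Il1r2 were both at least 1.5-fold higher in KO than in both other libraries, where 7.93% of all genes were in the non-dividing gate and 4.26% in the dividing gate. Non-dividing monocytes had 3400 CPM of Mmp8 in KO, against 500 CPM in the library labelled Het and 396 CPM in the library labelled WT. KO was 6.80-fold (6.58 to 7.04) and 8.59-fold (8.21 to 8.99) higher, the largest differences of Mmp8 in any gate. Il1r2 was at 1088 CPM in KO, 386 CPM in the library labelled Het and 80 CPM in the library labelled WT. Dividing monocytes had the same order at a lower level for both genes: 1059, 312 and 179 CPM of Mmp8, and 417, 170 and 26.5 CPM of Il1r2.

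More monocytes carried these transcripts as well. With each cell thinned to 3000 UMIs, 86.2% of non-dividing KO monocytes (82.8 to 89.1) had a UMI of Mmp8, against 51.7% labelled Het (46.8 to 56.5) and 40.5% labelled WT (35.6 to 45.5). B-lineage cells gave 7.29%, 7.14% and 8.19%. For Il1r2 the monocyte shares were 79.9%, 43.6% and 15.8%, and those of B-lineage cells 1.11%, 1.49% and 0.900%. Monocyte shares of both genes therefore stood above the level that free RNA gives in every library. Unthinned, the Mmp8 shares were 90.5%, 69.0% and 60.3%, at median depths of 15375.5, 14016 and 8733 UMIs, and the unthinned B-lineage shares were 15.3%, 16% and 13.9%, at 5662, 8012 and 4359.5 UMIs.

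**Figure D4:**
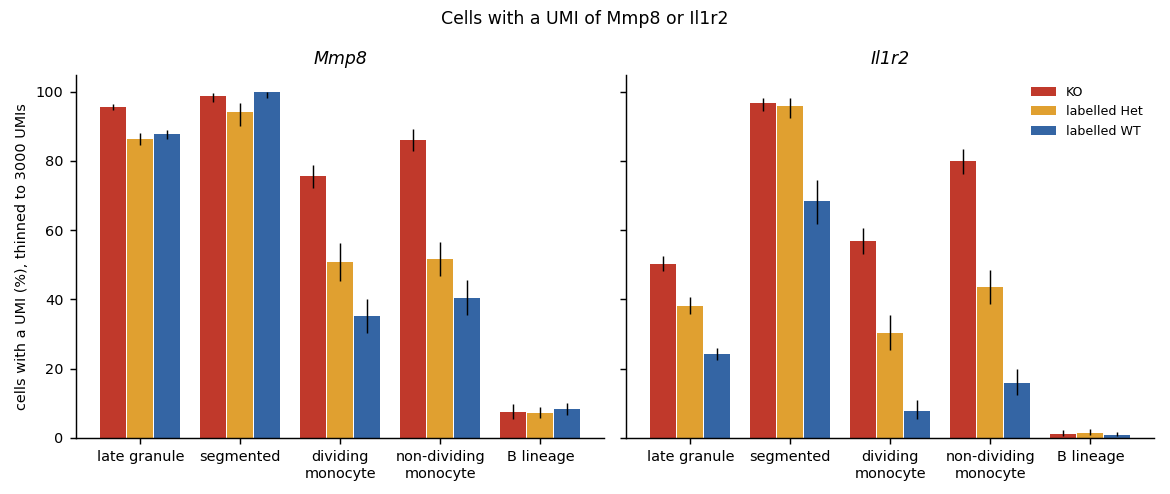
Share of cells with a UMI of Mmp8 (left) or Il1r2 (right) after thinning each cell to 3000 UMIs, in 2 neutrophil gates, 2 monocyte gates and B-lineage cells of KO (red), labelled Het (orange) and labelled WT (blue); bars start at 0 and carry exact Clopper-Pearson intervals at 95%. In non-dividing monocytes the Mmp8 share is 86.2% in KO, 51.7% labelled Het and 40.5% labelled WT, and B-lineage cells stay near the foot of the axis.

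Other neutrophil transcripts stood at very different levels in these monocytes. Camp, Ltf and Ngp are genes of the secondary granule score. Monocytes had to score under 100 on it, so the gate itself limited the level of these genes. Camp, which encodes the granule peptide cathelicidin, was at 0.724%, 0.795% and 1.64% of its neutrophil level in non-dividing monocytes of the KO, Het-labelled and WT-labelled libraries, whereas Mmp8 was at 152%, 50.0% and 33.5% of its own. Slpi was at 44.97%, 39.4% and 39.4%, Asprv1 at 11.2%, 18.4% and 26.7%, and Retnlg at 5.05%, 12.6% and 20.6%. Elane, of the primary granules, was at 100.3%, 119% and 154%. Among KO monocytes a UMI of Camp was seen in 19.5% of the 425 cells with Mmp8 and in 25% of the 68 cells without it. Of the other granule genes, Ltf was seen in 11.3% and 7.35% and Ngp in 47.5% and 47.1% of those cells. Ccr2, Mpeg1, Csf1r and Irf8 were markers of the monocyte gate itself, so finding them is no separate sign of cell type. Ccr2, the chemokine receptor of classical monocytes, was seen in 68.5% of KO monocytes with Mmp8 and 41.2% of those without. Other monocyte markers differed in direction. Mpeg1 was seen in 98.6% and 85.3%, Csf1r in 71.1% and 67.65%, and Irf8 in 52.5% and 67.65%. Irf8 was also the less frequent in cells with Mmp8 in the libraries labelled Het (47.9% and 77.8%) and WT (66.0% and 76.1%). Il1r2 was seen in 87.5% of KO monocytes with Mmp8 and in 32.4% of those without, against 63.6% and 22.2% in the library labelled Het and 28.3% and 7.26% in the library labelled WT. The 2 genes were thus found together in monocytes of every library.

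The monocyte gates differed in other ways too. Primary granule genes summed to 5832 CPM in non-dividing KO monocytes, against 16220 CPM in the library labelled Het and 18730 CPM in the library labelled WT, and the median mature score was 44.5, 28.9 and 25.1. Their part in the Mmp8 and Il1r2 levels was not tested. Slpi was at 336, 279 and 280 CPM and Anxa1 at 649, 529 and 588 CPM in the same cells, within 1.5-fold. Mmp9 and Retnlg were at least 1.5-fold lower in KO than in both others (18.9% of all genes), at 17.1, 67.9 and 217 CPM of Mmp9 and 195, 390 and 962 CPM of Retnlg. Both were also called lower in dividing monocytes (9.21% of all genes), at 4.37, 10.6 and 35.3 CPM of Mmp9 and 35.0, 98.7 and 178 CPM of Retnlg. Those levels were below the B-lineage ones of the same libraries (19.5, 17.6 and 45.5 CPM of Mmp9, 102, 150 and 183 CPM of Retnlg), and neither was called with doublets kept. The share of non-dividing monocytes with a Retnlg UMI was at or near that of B-lineage cells in all 3 libraries (12.6%, 18.8% and 25.7% of monocytes, 13.6%, 16.2% and 33.2% of B-lineage cells). By CPM these monocytes stood above B-lineage cells in each library. Retnlg was seen in 12.7%, 25.4% and 34.0% of those with Mmp8, and in 11.8%, 11.8% and 20.1% of those without. How much of it is free RNA was not tested. Its log2 ratio of KO over the library labelled Het was 0.27 in thinned non-dividing monocytes. Macrophages carried Il1r2 at 839 CPM in KO (125 cells), against 65.1 CPM labelled Het (68 cells) and 46.8 CPM labelled WT (77 cells).

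Within segmented cells the members were set beside Il1b, the gene of interleukin 1 beta, which activated or ageing neutrophils express. The split was chosen after the data were seen, and Il1b is itself 1 of the 7 genes of the mature score. A UMI of Il1b was found in 190 of 455 KO cells, 179 of 277 cells labelled Het and 72 of 276 cells labelled WT. Il1r2 was 1.58-fold higher in cells with Il1b in KO (1.505 to 1.655), 1.57-fold in the library labelled Het (1.45 to 1.69) and 1.55-fold in the library labelled WT (1.27 to 1.89). The ratio of Il1r2 between cells with and without the ligand was thus nearly the same in all 3 libraries.

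Other members were lower in the cells with Il1b. Retnlg was at 0.632, 0.569 and 0.603 times its level in cells without Il1b in the KO, Het-labelled and WT-labelled libraries, and Anxa1 at 0.666, 0.602 and 0.587 times. Padi4 was at 0.149 times in KO, 0.309 in the library labelled Het and 0.441 in the library labelled WT, on 7.91, 43.8 and 111 CPM in the cells with Il1b. Mmp25 went the same way, at 0.273, 0.377 and 0.683 times. Asprv1 stayed near 1 at 1.06, 1.12 and 1.10 times. Cells with Il1b had fewer UMIs, with medians of 3667 against 6103 in KO, 3528 against 5389.5 in the library labelled Het and 2374 against 4610.5 in the library labelled WT.

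**Figure D5:**
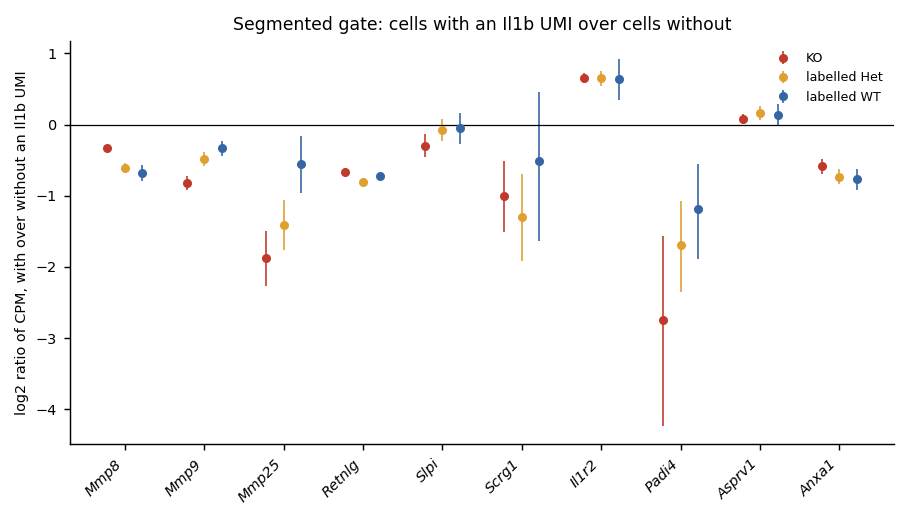
The log2 ratio of CPM in segmented cells with an Il1b UMI over segmented cells without one, for each gene in KO (red), labelled Het (orange) and labelled WT (blue), with exact conditional binomial intervals at 95%. Il1r2 lies above 0 in all 3 libraries, Asprv1 lies close to 0, and Retnlg, Anxa1, Mmp25 and Padi4 lie below 0.

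How alike the members are was described by the Pearson correlation of log2(CPM + 10) with the mean of all members over 27 points, the 9 gates in 3 libraries, which share libraries and depth. Asprv1 followed the mean most closely (r = 0.980), followed by Mmp9 and Retnlg (0.946 each), Mmp25 (0.945), Scrg1 (0.933), Anxa1 (0.878), Mmp8 (0.872), Padi4 (0.860) and Slpi (0.832). Il1r2 followed it least (0.576), the member with the highest levels outside neutrophils relative to its own. Among 3121 other genes the closest to the mean were Anxa11 (0.970), Cd3d (0.965), Lrg1 (0.965), Stx11 (0.964), Ifnlr1 (0.962), Slc2a3 (0.959), Numb (0.958) and Stfa2 (0.957). Anxa11, another annexin, was at 875, 845 and 986 CPM in late granule cells, and Lrg1, a leucine-rich glycoprotein of granules, at 1482, 1115 and 1074 CPM. Cd3d, known as a part of the T cell receptor complex, was at 375, 554 and 545 CPM in the same cells of the KO, Het-labelled and WT-labelled libraries.

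Within single late granule cells thinned to 3000 UMIs, Mmp8 and Retnlg went together most closely, with a Spearman rho of 0.575 in KO (2010 cells), 0.720 in the library labelled Het (1396 cells) and 0.727 in the library labelled WT (2368 cells). Mmp8 and Mmp9 had a rho of 0.439, 0.549 and 0.542. Anxa1 ran against Retnlg, with a rho of -0.328 in KO, -0.145 in the library labelled Het and -0.339 in the library labelled WT. These are descriptions over cells, which are not replicates.

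Other genes of the same pathways were read from lists, with the 5 neutrophil stages summed and the same fold rule. Of 15 other matrix metalloproteinases Mmp17 alone had enough UMIs (12.2, 15.7 and 13.5 CPM in the KO, Het-labelled and WT-labelled libraries), and of their inhibitors Timp2 alone (99.2, 82.6 and 91.1 CPM). Neither passed 1.5-fold. None of the 4 other deiminases and none of the 3 other resistin-like genes had enough UMIs, so Padi4 and Retnlg were the members of their families in use. Bst1, reported as a receptor of Scrg1, was at 71.1 CPM in KO, 61.3 CPM labelled Het and 102 CPM labelled WT.

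In the interleukin 1 system, 3 of 9 genes had enough UMIs and 1 was lower in KO by the fold rule. Il1rn, the receptor antagonist, was at 20.3 CPM in KO, 47.9 CPM labelled Het and 44.1 CPM labelled WT. Il1rap, the shared receptor chain, was at 18.1, 28.8 and 21.1 CPM, and Il18rap at 196, 252 and 289 CPM. Il1r2 and Il1rn, both restraints on interleukin 1, thus stood on opposite sides in KO. In segmented cells Il1b was at 314 CPM in KO, 1007 CPM labelled Het and 270 CPM labelled WT.

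Around Anxa1, 10 of 12 annexins, partners and receptors had enough UMIs, of which Anxa7 and Fpr2 were higher in KO and S100a10 lower. Fpr2, the receptor of annexin A1 and a gene of the mature score, was at 1339 CPM in KO, 772 CPM labelled Het and 659 CPM labelled WT, whereas Anxa1 was at 3941, 5066 and 5281 CPM. Anxa3 was at 800, 914 and 914 CPM and S100a11 at 1465, 1086 and 1241 CPM. Ligand and receptor stood on opposite sides of the other libraries in KO, with the Anxa1 ratios within 1.5-fold when the stages are summed.

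Around Slpi, 5 of 9 listed proteases and inhibitors had enough UMIs. Wfdc21, an inhibitor of the same family, was higher in KO at 2374 CPM, against 1442 CPM labelled Het and 1563 CPM labelled WT. The serine proteases Elane (721, 2043 and 1696 CPM) and Prtn3 (874, 1693 and 1660 CPM) were lower in KO, as was Ctsg, and these proteases were also markers of the promyelocyte gate. Serpinb1a was at 1519, 1284 and 809 CPM. Of 14 receptors and transcription factors of neutrophil maturation 1 was lower in KO (Cebpa, at 15.4, 40.2 and 52.6 CPM) and none higher. Cebpe, which drives secondary granule genes, was at 966, 938 and 851 CPM, Spi1 (PU.1) at 748, 661 and 508 CPM, Itgam at 931, 854 and 803 CPM and Mxd1 at 778, 766 and 1142 CPM.

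Of 23 further granule and late neutrophil genes with enough UMIs, Ifitm6 was higher in KO (5050, 3101 and 1722 CPM) and Fcnb and Ly6g were lower. Ly6g, the surface antigen used to recognise mouse neutrophils, was at 83.7 CPM in KO, 191 CPM labelled Het and 369 CPM labelled WT. The 4 listed genes of the highest level were Olfm4 (6713, 9637 and 8536 CPM), Stfa3 (6692, 8207 and 9827 CPM), Lyz2 (4052, 6073 and 6418 CPM) and Hp (5289, 4399 and 4144 CPM), none past 1.5-fold against both other libraries. The median log2 ratio of this list was 0.02 for KO over the library labelled Het and 0.01 over the library labelled WT. Ifitm6 was 1.63-fold and 2.93-fold higher in KO than in the libraries labelled Het and WT, above the 1.56-fold and 1.84-fold of Asprv1 over the same stages. It was not called in late granule or segmented cells alone. Late granule cells had 4 of 23 genes lower in KO (Arg2, Fcnb, Lyz2, Ly6g, beside 5.26% of all genes) and 0 higher (5.81%). Segmented cells had 6 of 25 lower (Adam8, Fcnb, Lyz2, Ly6g, Stfa3, Ccl6, beside 6.12%) and 1 higher (Alox5ap, beside 15.9%).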

How the data were processed

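Viable CD45+ cells of newborn mouse liver were fixed and captured with the 10x Genomics Flex probe set, per the labels' protocols. The deposited matrices hold raw UMI counts per gene and cell, and the authors made them with Cell Ranger 7.0.0 against mm10, per the submitters' processing notes. Animals per library, probe set version and barcode filters are not stated there, and probed parts of near-identical genes cannot be told apart. Barcodes under 200 genes (none) and Scrublet doublets (3.61%, 2.33% and 2.84% in the KO, Het-labelled and WT-labelled libraries, scanpy 1.11.5) were left out. Gates were set on marker scores, with thresholds chosen after the score distributions were seen: secondary granule 100, primary granule 30, mature 40, dividing 10, other lineages 10 and dendritic cells 30 UMIs per 10000. Of the kept cells 92.6%, 88.6% and 90.2% fell in 1 of 9 gates. UMIs were summed per gate and library and given as CPM of the gate, so deep cells weigh more. Levels have exact Poisson intervals, ratios exact conditional binomial intervals, and shares Clopper-Pearson intervals, all for counting error only. Log2 ratios had 0.5 counts added. A gene counted as called when KO was 1.5-fold from both other libraries, among genes that reached 30 UMIs and averaged 10 CPM or more. No test was possible with 1 library per genotype. All members are named, and from each related list up to 4 genes of the highest level plus those called. Members, lists and rules were chosen with earlier results of these data known. Positions are from the GENCODE M21 annotation of GRCm38. Alternatives used edgeR 4.0.16 TMM factors, DESeq2 1.42.0 size factors, other denominators, cell weights, thinning to 3000 UMIs, doublets kept, other gate thresholds and pseudocounts.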

Additional observations from a re-analysis of the deposited data

Results flagged for a closer look

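For 4 members the KO library lay on one side of both other libraries in one gate and on the opposite side in another, with all counting intervals excluding a ratio of 1. Gates were compared where the member stood at least 3 times above its B-lineage level in every library. None of these differences between gates was tested, since there is 1 library per genotype.

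Mmp9 had a log2 ratio of 0.35 (KO over the library labelled Het) and 0.28 (KO over the library labelled WT) in dividing granule cells, against -0.42 and -1.10 in early granule cells, -0.17 and -0.72 in late granule cells and -0.54 and -1.41 in segmented cells. Retnlg had 0.85 and 0.98 in dividing granule cells, against -0.13 and -0.33 in late granule cells. Dividing KO cells also had the higher mature score, which includes Fpr2. The part of that score in these ratios was not tested. Within bins of that score KO was the lowest library for Mmp9 in dividing cells too. At 20 to 30 it had 129 CPM, against 221 and 324 CPM in the libraries labelled Het and WT. The higher KO level of Mmp9 in dividing cells was seen in the summed gate and not within these bins.

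Slpi had -0.77 (over Het) and -0.74 (over WT) in segmented cells, against 0.80 and 0.77 in promyelocytes, 0.070 and 0.18 in dividing granule cells, 0.071 and 0.14 in early granule cells, 0.27 and 0.29 in dividing monocytes and 0.26 and 0.26 in non-dividing monocytes. With every cell weighing the same, the non-dividing monocyte values of Slpi were -0.15 and -0.09, so the contrast with that gate depends on how cells are weighed.

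Anxa1 had -0.25 and -0.26 in dividing granule cells, -0.50 and -0.45 in early granule cells, -0.78 and -0.74 in late granule cells and -0.59 and -1.03 in segmented cells. Promyelocytes had the widest difference the other way, at 1.95 and 2.28, at levels of the other libraries less than 3 times those of their B-lineage cells. In dividing monocytes Anxa1 had 0.33 and 0.58, and in non-dividing monocytes 0.29 and 0.14. With every cell weighing the same, the non-dividing monocyte values of Anxa1 were -0.09 and -0.27.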

How the results depend on the processing

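Up to 146 ratios past 1.5-fold were recomputed under each alternative, which gave 1430 pairs of ratio and setting. Of these pairs 1421 kept their direction and 1362 stayed past 1.5-fold. The pairs reuse the same ratios and are not independent. The 9 that changed direction are given as log2 ratios. With stricter gate thresholds Retnlg in promyelocytes was at -0.43 (KO over Het). With looser thresholds Mmp8 in early granule cells was at -0.998 (over Het) and -0.89 (over WT), and Padi4 in non-dividing monocytes at 0.13 (over Het). The looser early granule gate ended at a lower mature score and held partly other cells, as described above. With cells thinned to 3000 UMIs Scrg1 was at -0.089 in dividing and -0.23 in non-dividing monocytes, Retnlg at 0.27 and Padi4 at 0.49 in non-dividing monocytes (KO over Het), and Padi4 at 0.26 in dividing monocytes (Het over WT). The cause was not tested. Called counts also moved. With the neutrophil stages summed, a 2-fold rule left 1 higher member of 4 (0.554% of all genes). The same 4 were called with TMM factors beside 12.8% of all genes, and with DESeq2 size factors beside 10.6%. Padi4, the 1 lower member, was no longer called with TMM factors (4.27% of all genes), DESeq2 size factors (4.57%), stricter gates (14.1%) or the 2-fold rule (3.21%). In promyelocytes the 5 higher members became 3 with thinning (11.8% of all genes) or stricter gates (5.5%) and 2 at 2-fold (0.943%). The 0 lower became 1 with stricter gates (11.7%) and 2 with no minimum CPM (14.6%). In dividing granule cells the 2-fold rule left 2 higher members of 4 (0.598% of all genes) and 0 lower (1.08%). In early granule cells the 4 higher became 1 with looser gates (4.31% of all genes) or at 2-fold (0.744%). The 1 lower became 4 with looser gates (7.36%), 2 without Fpr2 and Mxd1 (10.7%) and 0 with stricter gates (8.95%). In late granule cells the 2 higher members became 4 with TMM factors (7.27% of all genes), thinning (6.6%) or looser gates (5.57%). They became 1 without the 10 highest genes in the denominator (4.49%), with stricter gates (7.57%) or at 2-fold (1.14%). They became 0 when Fpr2 and Mxd1 were taken out of the mature score (10.3%), an alternative chosen after seeing the data. The 2 lower members there became 0 at 2-fold (1.86%). In segmented cells the 1 higher member, Mmp8, was not called with TMM (10.1% of all genes) or DESeq2 factors (8.88%). Nor was it called without the 10 highest genes (11.5%) or at 2-fold (5.1%). The 3 lower became 1 with looser gates (5.97%) or at 2-fold (2.72%). No paired analysis was possible because each genotype has 1 library, and for the same reason no replicate could be left out. Segmented cells are few and shallow, which limits Padi4 and Scrg1 there most.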
